A study of Mus musculus with 6 samples.

Results

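Of the 34761 names on the Agilent whole mouse genome array, 35 genes that carry cells through mitosis and cytokinesis were followed between 2 genotypes of stress erythroblasts. They were picked by gene name among the non-control probes and fall into 7 groups by role. The 35 genes had 53 of the 55681 probes, and 34 genes with 49 probes were bright enough to be tested, among 14151 tested genes with 18777 probes. The gene without a tested probe was Aurkb, the catalytic kinase of the chromosomal passenger complex, whose single probe was not detected (called well above background by the scanner software) on any of the 6 arrays.

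The study asked how P38α, the stress kinase encoded by Mapk14, acts on red cell precursors during recovery from anemia. RNA came from CD71highTer119+ erythroblasts of the bone marrow (BM), sorted on day 4 of recovery after phenylhydrazine (PHZ), a drug that lyses red cells. The control group, labelled P38α+/-, was 3 Mx1-Cre/P38α fl/+ mice, and the group labelled P38α-/- was 3 Mx1-Cre/P38α fl/fl mice. All 6 mice therefore carried Mx1-Cre and at least 1 floxed allele, and all had received 3 injections of PolyIC at 6 to 8 weeks of age and 6 weeks of rest before PHZ. Mx1-Cre is driven by an interferon-inducible promoter and is not restricted to the erythroid lineage, so cells around the erythroblasts can lose P38α too. Each sample was hybridised to 1 single-colour array, and the labels number the samples 1 to 3 in each genotype.

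Erythroblasts divide several times in quick succession before they stop cycling and lose the nucleus, and the CD71highTer119+ gate holds cells that are still dividing. Transcripts of mitotic genes rise toward G2 and M phase, when cyclin B and Cdk1 drive entry into mitosis, the kinetochore and the spindle assembly checkpoint hold chromosomes until each is attached, and the chromosomal passenger complex, kinesins and centralspindlin divide the cell. Many of their promoters hold a pair of short elements, the CHR, with the letters TTTGAA, and the CCAAT box, through which repressor and activator complexes time transcription in the cycle.

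These elements were looked up in the RefSeq promoters of build GRCm38.p6, from 250 bases before to 50 bases after each start, on both strands. Of the 35 genes, 30 were matched, with 32 promoters. TTTGAA was present in 25 of them (78.1%), compared with 17.9% of all 32851 promoters of that length, and CCAAT in 24 (75%), compared with 37.4%. Both were present in 21 promoters (65.6%), compared with 6.95% of all, and at least 2 CCAAT boxes in 16 (50%), compared with 11.7%. Ect2 and Prc1 had overlapping promoter windows, so their matches were counted again. By gene, TTTGAA was present in 23 of 30, compared with 20.2% of all genes, and both elements in 19, compared with 7.97%. Of the 84 matches in these promoters, 2 overlapped a match of the other element. A match describes letters in the window and is not a measured binding site. The promoters of the mitotic kinase and its B cyclins show the arrangement, with both elements and their reverse complements in capitals, each printed 5′ to 3′ along the gene's own strand, which is the minus strand for all of them.
Cdk1, chr10:69352863-69353162: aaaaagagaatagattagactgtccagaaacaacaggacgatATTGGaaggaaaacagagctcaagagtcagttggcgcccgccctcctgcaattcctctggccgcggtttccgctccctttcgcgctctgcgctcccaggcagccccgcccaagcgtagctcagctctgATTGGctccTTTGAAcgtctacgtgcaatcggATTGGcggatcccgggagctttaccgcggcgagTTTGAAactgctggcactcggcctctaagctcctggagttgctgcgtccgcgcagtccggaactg
Ccnb2, chr9:70421505-70421804: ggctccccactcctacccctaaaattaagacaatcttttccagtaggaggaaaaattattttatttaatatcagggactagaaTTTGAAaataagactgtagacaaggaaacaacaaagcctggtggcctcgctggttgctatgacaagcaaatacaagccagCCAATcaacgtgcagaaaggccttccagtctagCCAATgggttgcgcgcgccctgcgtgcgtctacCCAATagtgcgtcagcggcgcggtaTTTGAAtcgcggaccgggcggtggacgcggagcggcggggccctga
Ccnb1, chr13:100786437-100786736: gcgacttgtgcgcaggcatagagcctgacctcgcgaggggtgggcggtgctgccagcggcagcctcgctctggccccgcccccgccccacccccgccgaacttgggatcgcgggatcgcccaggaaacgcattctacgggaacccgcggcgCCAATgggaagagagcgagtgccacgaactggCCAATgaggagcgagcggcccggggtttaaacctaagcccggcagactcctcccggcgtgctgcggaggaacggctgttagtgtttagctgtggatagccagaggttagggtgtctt
Cdk1 held 3 CCAAT boxes in reverse orientation, the nearest 48 bases before the start, and 2 TTTGAA elements at 71 and 15 bases before it. Ccnb2 held 3 CCAAT boxes at 87, 54 and 21 bases before the start and a TTTGAA element at 4 bases after it, besides one at 167 bases before it. Ccnb1 held 2 CCAAT boxes at 99 and 67 bases before the start and no TTTGAA in this window.

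The probes matter as much as the promoters here, because several genes were read by more than 1 probe and these did not give the same difference. Each probe is an oligonucleotide of 60 bases, and its position is that of build mm9 in the array files. The probes of Nuf2 and Kif23 are printed because each gene has 1 bright probe and 1 dim probe from a different transcript record, and those pairs differed in the comparison of genotypes. For Cdk1, which has 3 probes in all, the last 30 bases of the only tested probe are printed (chr10:68799513-68799572, minus strand, for all 60 bases).
Nuf2, bright probe, chr1:171428989-171429048, minus strand: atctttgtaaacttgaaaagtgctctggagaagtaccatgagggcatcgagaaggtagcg
Nuf2, dim probe, chr1:171440451-171440510, minus strand: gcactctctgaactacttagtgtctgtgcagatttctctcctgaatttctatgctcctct
Kif23, bright probe, chr9:61767492-61767732, minus strand: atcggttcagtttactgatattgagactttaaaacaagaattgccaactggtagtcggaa
Kif23, dim probe, chr9:61775096-61775155, minus strand: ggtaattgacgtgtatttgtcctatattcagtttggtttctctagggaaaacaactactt
Cdk1, tested probe, last 30 bases: agtggcgcgcaatctttaatctcagcagag
The bright Kif23 probe covers a longer span of the genome than its own 60 bases. Both Nuf2 probes and both Kif23 probes read through without a stop codon in at least 1 frame, and the tested Cdk1 probe did not. The tested Cdk1 probe shared a stretch of 12 bases, on either strand, with 21 other probes of the array, and the median probe with 27. The 30 bases printed were chosen as the window with most of this sharing, and they held it for 15 of the 21. Exact matches of 12 bases miss similar sequences with mismatches, so this count cannot show whether the probe is specific. Whether the probe also reads other transcripts was not tested. Levels of different probes were not ranked against each other.

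Levels are given as the log2 processed signal minus the 75th percentile of the same array, so that 0 is the level of a fairly bright probe. The share of probes detected was 53.1% on P38α+/- array 1 and 28.9% on P38α-/- array 1, and 35.1% to 38.2% on the other 4 arrays. P38α-/- array 3 was alone on its slide and scan. The defining erythroid genes, among them Gata1, Klf1, Tfrc and Alas2, were tested for 9 of 9 and averaged 4.74 to 5.04 on the P38α+/- arrays and 4.76 to 5.13 on the P38α-/- arrays. Mapk14 itself had 2 tested probes. The brighter one read 0.33, 0.58 and 0.61 in P38α+/- and 0.76, 1.19 and 1.20 in P38α-/- erythroblasts, with all P38α-/- arrays higher (log2 difference 0.54, limma adjusted p = 0.186). The dimmer one differed by 0.01, with overlapping groups. Which exons were deleted is not given in the sources used here, so neither probe tests the labels, and every direction in the text rests on the labelled genotype. Fewer cells of a type and less RNA per cell cannot be told apart in such sorted bulk samples.

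None of the 34 tested mitosis genes passed the threshold between genotypes (limma, Benjamini-Hochberg adjusted p of at most 0.05 and a fold of at least 2), and the lowest adjusted p was 0.115, for Cdk1. Over all tested genes, 27 passed (0.191%), with 310 passing without P38α+/- array 3 and 0 without any other single array, and 0 mitosis genes in each case. At an unadjusted p of at most 0.05, 1 mitosis gene passed by its brightest probe, Cdk1, compared with 20% of all tested genes. By any probe 4 passed, adding Ect2, Kif23 and Nuf2, compared with 23.9% of all tested genes. The Cdk1 and Nuf2 probes concerned were detected on all P38α+/- arrays but on 2 of 3 P38α-/- arrays, so P38α+/- alone admitted them. With only probes detected on all 6 arrays, 33 mitosis genes were tested, Cdk1 was not, and 2 passed by any probe. Arrays of the genotypes did not overlap for 3 of 34 genes (8.82%), compared with 27.1% of all tested genes. Ccna2 was higher on all P38α-/- arrays, as were 7.46% of all tested genes, and Cdk1 and Ndc80 were lower on all of them, as were 19.7%. When arrays of equal number were blocked together, 62 genes passed in all and again 0 mitosis genes. The lowest limma adjusted p was then 0.077, for the dim Kif23 probe. It was also 0.077 for a dim Ect2 probe, 0.081 for the dim Nuf2 probe and 0.085 for Cdk1. The methods' t-test on the same values passed 2 genes after Benjamini-Hochberg adjustment and 0 mitosis genes.

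The differences themselves were small. For 32 of 34 genes the log2 difference lay under 0.25 in size, compared with 47% of all tested genes. Ndc80 lay between 0.25 and 0.5, no gene lay between 0.5 and 1, and Cdk1 alone exceeded 1. The Cdk1 difference, from a dim probe, ran from -1.38 to -0.35 over the alternative processings and with single arrays left out. The 95% interval of the difference stayed within 2-fold in both directions for 31 genes, compared with 60.5% of all tested genes, the exceptions being Cdk1, Ndc80 and Ttk. Bright genes have narrower intervals, and among the 22 mitosis genes in the brightest of 5 equal groups of tested probes all 22 stayed within 2-fold, compared with 87.3% of the 3210 tested genes there. All 22 also differed by less than 0.25, compared with 68.6%. The median interval was 0.85 wide for mitosis genes, from 0.66 for Ccna2 to 1.75 for Ttk, compared with 1.09 for all tested genes.

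The median mitosis gene differed by -0.11, and the median of all tested genes by -0.14. Fitted differences were below 0 for 23 of 34 mitosis genes, compared with 65.6% of all tested genes. Relative to the median gene, 23 lay above and 11 below. Both the sign against 0 and the side of the median gene depend on the processing. Scaled to the percentile over all probes the median mitosis gene differed by 0.38 and the median gene by 0.34, and centred on spike-in controls by 0.06 and 0.03, and since these scalings shift all genes alike they cannot change the side. With quantile normalization the median mitosis gene was at -0.07 and the median gene at 0.05, and in the authors' table they were at -0.07 and 0.06, so the side turned in both. It also turned, by 0.02, with probes detected on all 6 arrays and without P38α+/- array 1. Within that brightest group, where the median of all tested genes was 0.00035, the median mitosis gene was at -0.08.

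**Figure D1:**
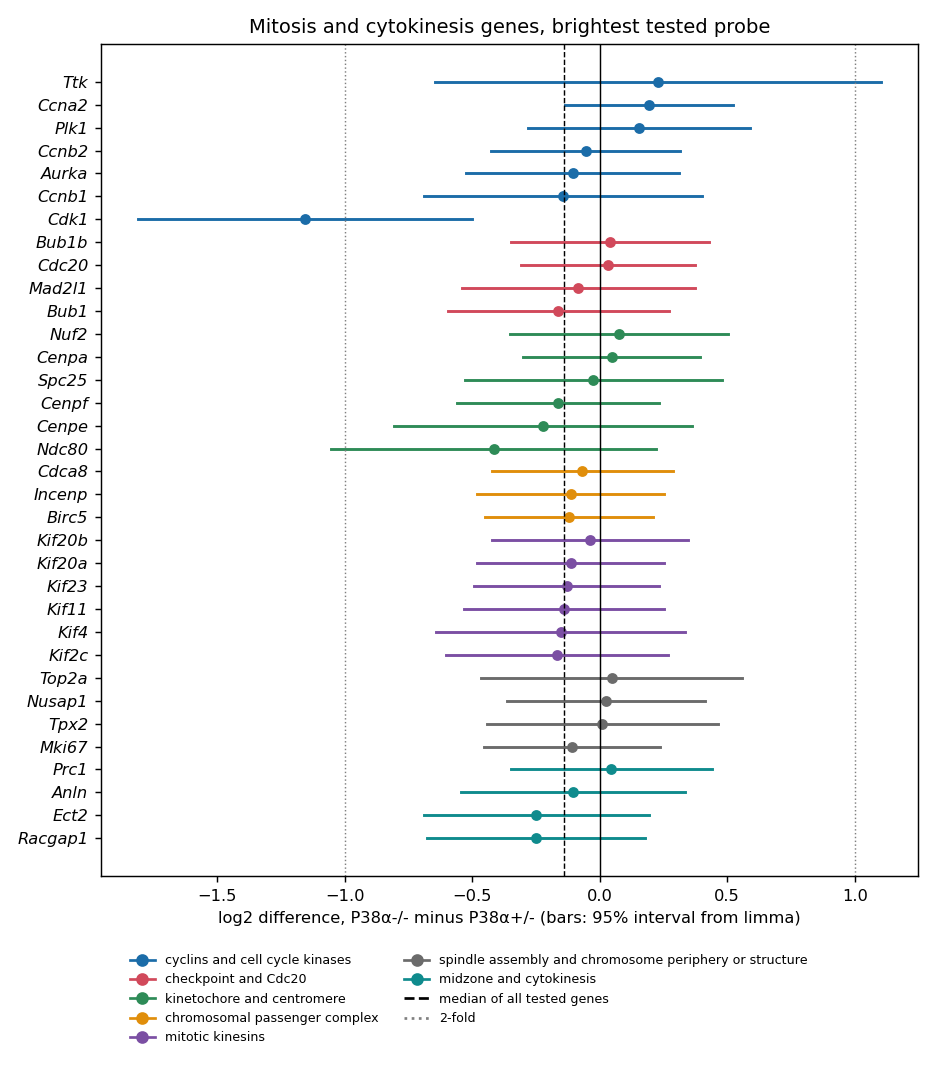
Log2 difference between P38α-/- and P38α+/- erythroblasts (horizontal axis) for each of the 34 tested mitosis genes (vertical axis, coloured by role), with points for the fitted difference of the brightest tested probe and bars for its 95% interval from limma. The interval of 33 genes spans 0, and that of Cdk1 runs from -1.81 to -0.50; the dashed line marks the median of all tested genes at -0.14 and the dotted lines mark 2-fold.

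Among the cyclins and cell cycle kinases, 3 of 7 genes had higher and 4 lower values in P38α-/- erythroblasts, with a median difference of -0.06 and no gene past the threshold. Cdk1, the kinase that cyclin B activates at mitotic entry, read -4.15, -4.80 and -5.17 in P38α+/- erythroblasts and -5.79, -5.95 and -5.84 in P38α-/- erythroblasts. Every P38α-/- array was below every P38α+/- array, and P38α+/- array 1 stood highest. The log2 difference was -1.15 (SE 0.27, limma adjusted p = 0.115), a size of 2.23-fold, and it was negative in each pair of arrays with the same number, at -1.64, -1.15 and -0.68. This probe was among the dimmest tested and was not detected on 1 of the 3 P38α-/- arrays. It therefore entered the test through the P38α+/- group only. Array weights brought its limma adjusted p to 0.021 with a difference of -1.07. These weights were 3.95 for P38α-/- array 3, which was alone on its slide, 2.14 for P38α+/- array 2 and 0.47 to 0.77 for the others. The difference was -0.67 with the percentile over all probes and -0.44 with quantile normalization. It was -0.37 with normexp background and -0.35 in the authors' normalized table.

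A second Cdk1 probe, detected on 2 arrays per genotype, did not enter the test. It read -5.99, -5.04 and -4.77 in P38α+/- and -6.14, -5.60 and -5.18 in P38α-/- erythroblasts. Here the genotypes overlapped, and P38α+/- array 1, the highest on the tested probe, was the lowest of its group. Within the numbered pairs this probe too was lower each time, by -0.15, -0.57 and -0.41. The remaining Cdk1 probe was detected on none of the 6 arrays.

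Cyclin A2 (Ccna2), the partner of Cdk2 in S phase and of Cdk1 in G2, was the one mitosis gene for which all P38α-/- arrays were higher. It read 3.24, 3.23 and 3.34 in P38α+/- and 3.41, 3.46 and 3.51 in P38α-/- erythroblasts. The log2 difference was 0.19 (95% interval -0.14 to 0.52, limma adjusted p = 0.463), and it was the mitosis gene with the smallest spread between replicates, at 0.056.

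Cyclin B1 (Ccnb1), the cyclin whose destruction ends mitosis, read 2.07, 2.22 and 2.52 in P38α+/- and 1.75, 2.33 and 2.31 in P38α-/- erythroblasts by its brightest probe. The groups overlapped and the difference of -0.14 had an interval from -0.69 to 0.40. Its other tested probes differed by -0.20 and -0.52 with overlapping groups. Cyclin B2 (Ccnb2), the B cyclin found at the Golgi, differed by -0.06 (interval -0.42 to 0.31).

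The remaining kinases gave no separation. Plk1, which acts in centrosome maturation and mitotic exit, read 3.02, 2.92 and 3.25 in P38α+/- and 3.25, 3.00 and 3.42 in P38α-/- erythroblasts, a difference of 0.15 with an interval from -0.28 to 0.59. It was one of 2 mitosis genes, with Ccna2, that were higher in all 3 numbered pairs. The checkpoint kinase Ttk read -4.47, -4.46 and -3.47 in P38α+/- and -4.43, -3.54 and -3.74 in P38α-/- erythroblasts, with 1 low P38α-/- array and 1 high P38α+/- array, so its difference of 0.23 carried the widest interval (-0.64 to 1.10). Aurka, the centrosomal Aurora kinase, differed by -0.11 (interval -0.52 to 0.31).

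The checkpoint genes differed little, with a median difference of -0.03 over 4 genes and 2 on either side of 0. Bub1 differed by -0.16, Bub1b, which encodes BubR1, by 0.04, and Cdc20, the activator of the anaphase-promoting complex, by 0.03. Mad2l1, which encodes the Mad2 inhibitor of Cdc20, differed by -0.08 by its brightest probe and by -0.12 and -0.35 by its others. All of these groups overlapped.

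At the kinetochore and centromere, 2 of 6 genes had higher and 4 lower values, with a median of -0.09. Ndc80, the microtubule-binding subunit of the outer kinetochore, read -0.71, -0.67 and -0.51 in P38α+/- and -1.61, -0.80 and -0.73 in P38α-/- erythroblasts. The groups did not overlap, by a margin of hundredths, and P38α-/- array 1 was far below the others. Its difference was -0.41 (interval -1.05 to 0.22, limma adjusted p = 0.412), and -0.10 without P38α-/- array 1.

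Nuf2, the direct partner of Ndc80 in the same complex, read -0.29, -0.43 and 0.04 in P38α+/- and -0.16, -0.24 and -0.05 in P38α-/- erythroblasts by its bright probe, a difference of 0.08 (interval -0.35 to 0.50) in overlapping groups. Spc25, also a subunit of that complex, differed by -0.02 (interval -0.53 to 0.48).

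The centromeric genes had overlapping groups throughout. Cenpa, the centromeric histone H3 variant, read 1.87, 1.78 and 1.91 in P38α+/- and 1.80, 1.88 and 2.02 in P38α-/- erythroblasts, a difference of 0.05 (interval -0.30 to 0.40). Cenpe, the kinetochore kinesin, read 2.98, 3.26 and 3.55 in P38α+/- and 2.65, 3.24 and 3.24 in P38α-/- erythroblasts, a difference of -0.22 (interval -0.81 to 0.36). Cenpf read -4.05, -4.16 and -4.11 in P38α+/- and -4.51, -4.14 and -4.15 in P38α-/- erythroblasts, a difference of -0.16 (interval -0.56 to 0.23). In each of them the lowest of the 6 values or the lowest but 1 was that of P38α-/- array 1.

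The chromosomal passenger complex, which corrects faulty attachments and later marks the midzone, had lower values for all 3 tested subunits, by -0.07 for Cdca8 (borealin), -0.11 for Incenp and -0.12 for Birc5 (survivin). Each of these intervals spanned 0 and each group overlapped, and all 3 lay above the median gene. Other probes read differently in size and sign: a second Cdca8 probe differed by 0.15, a second Incenp probe by -0.18, and 2 further Birc5 probes by -0.01 and 0.01. The probe of Aurkb read -7.74, -8.40 and -8.22 in P38α+/- and -5.81, -8.52 and -7.37 in P38α-/- erythroblasts, none of them detected, and no fold is given.

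All 6 mitotic kinesins had lower values in P38α-/- erythroblasts by their brightest probe, from -0.04 for Kif20b to -0.17 for Kif2c, with a median of -0.13, which lay 0.0041 above the median gene. Kif11 drives spindle bipolarity, Kif4 and Kif23 work at the midzone, Kif20a brings the passenger complex there, and Kif2c, a microtubule depolymerase, acts at centromeres. Kif2c read -1.75, -1.71 and -1.27 in P38α+/- and -1.74, -1.81 and -1.69 in P38α-/- erythroblasts (interval -0.60 to 0.27). Only P38α+/- array 3 stood out there, while a second, dimmer Kif2c probe differed by -0.41 (interval -0.87 to 0.04) without overlap between the groups.

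Genes of spindle assembly and chromosome structure had a median of 0.02, with 3 higher and 1 lower. Mki67, which encodes the Ki-67 protein that coats mitotic chromosomes and is used as a marker of cycling cells, read 6.10, 6.01 and 6.16 in P38α+/- and 5.99, 5.89 and 6.08 in P38α-/- erythroblasts. Its difference was -0.11 (interval -0.45 to 0.24), and a second probe gave -0.17. Mki67 was lower in each numbered pair, by -0.12, -0.12 and -0.08, while the values of the 2 groups overlapped. Top2a, the topoisomerase that untangles sister chromatids, read 1.32, 1.25 and 1.76 in P38α+/- and 1.23, 1.55 and 1.69 in P38α-/- erythroblasts, a difference of 0.05 (interval -0.46 to 0.56). Nusap1 and Tpx2, both microtubule-associated spindle proteins, differed by 0.03 and 0.01, and a dim second Tpx2 probe by -0.32 with overlapping groups.

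The genes of the midzone and of cytokinesis had the lowest median, -0.18, with 1 of 4 higher. Racgap1, the GTPase-activating component of centralspindlin, which also holds Kif23, read 2.52, 2.44 and 2.70 in P38α+/- and 2.05, 2.38 and 2.48 in P38α-/- erythroblasts. Its difference was -0.25 (interval -0.68 to 0.18), and a second probe that overlaps the first by sequence gave -0.29. Ect2, the exchange factor that activates RhoA at the cleavage furrow, read 0.64, 0.63 and 0.70 in P38α+/- and 0.12, 0.66 and 0.45 in P38α-/- erythroblasts, with 1 low array and a difference of -0.25 (interval -0.69 to 0.19). Anln (anillin), a scaffold of the contractile ring, differed by -0.11 and Prc1, which bundles midzone microtubules, by 0.05.

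The genes did not vary independently between arrays of one genotype. P38α+/- array 3 was the highest of its group for 28 of 34 mitosis genes, compared with 25.7% of all tested genes, and P38α-/- array 1 the lowest of its group for 22, compared with 35.3%. The mean over the 34 genes was 1.20, 1.15 and 1.37 on the P38α+/- arrays and 0.99, 1.19 and 1.24 on the P38α-/- arrays, so the genotypes overlapped. Without P38α-/- array 1 the median mitosis gene differed by 0.02, and without P38α+/- array 3 by -0.01, while 0 mitosis genes passed in either case. The median spread between replicates was 0.18, compared with 0.17 for tested genes at least as bright as the median mitosis gene.

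Taken by number, the pairs gave median differences of -0.19, 0.06 and -0.10 over the mitosis genes and -0.20, -0.09 and -0.08 over all tested genes. The first pair had 24 of 34 genes lower, the second 12 and the third 29. Besides the 2 genes higher in all pairs, 8 were lower in all, namely Birc5, Incenp, Cdk1, Cenpe, Ndc80, Racgap1, Kif20a and Mki67. The second pair thus had most mitosis genes higher and the other pairs most of them lower.

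**Figure D2:**
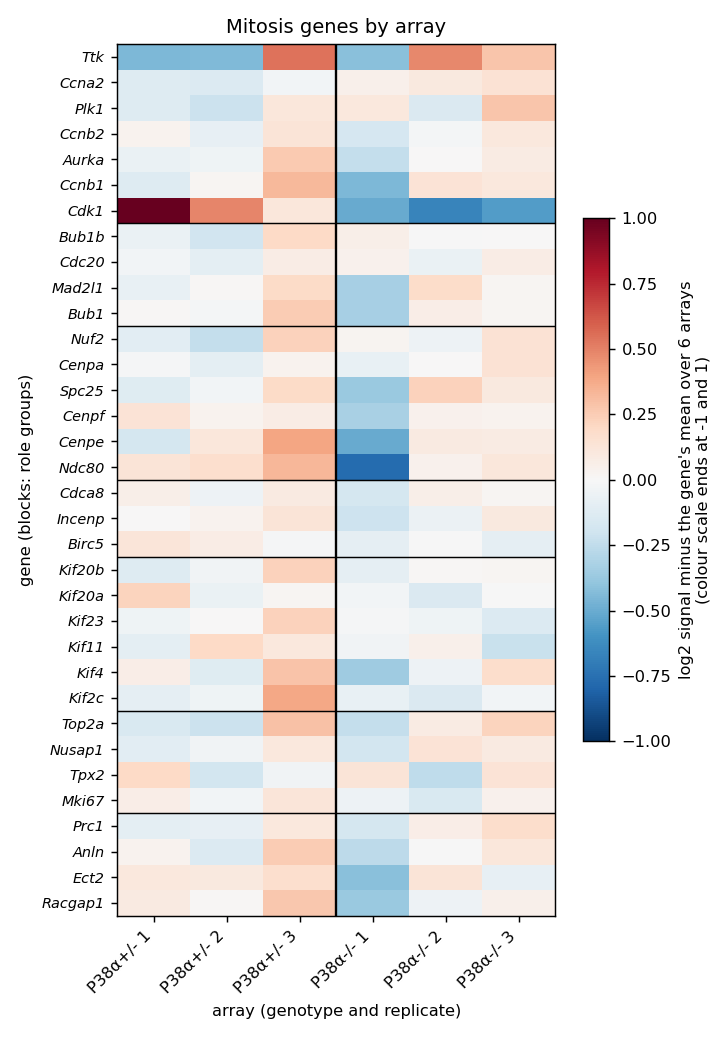
Log2 signal of each of the 34 tested mitosis genes (rows, in blocks by role) on each array (columns), as colour relative to the gene's mean over the 6 arrays, with the colour scale ending at -1 and 1. P38α+/- array 3 is the warmest column, highest of its genotype for 28 genes, and P38α-/- array 1 the coolest, lowest of its genotype for 22; Cdk1 is the one row in which all 3 arrays of a genotype are strongly coloured to one side.

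Neutrophil and early progenitor markers had mostly lower values in the P38α-/- group. Early neutrophil granule genes, 4 of 4 with lower values, averaged 1.16, 2.46 and -0.14 on the P38α+/- arrays and -0.30, -0.80 and -1.40 on the P38α-/- arrays. Late granule genes, 5 of 5 with lower values and no overlap, averaged 4.10, 4.92 and 3.55 against 2.91, 3.05 and 2.63. P38α+/- array 3, on which the mitosis genes were highest, was the lowest of its group for both lists.

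Early erythroid progenitor genes, with 4 of 5 tested, averaged -3.27, -3.20 and -4.46 in P38α+/- and -4.28, -4.48 and -5.56 in P38α-/- erythroblasts, with Kit lower by -1.62, Cd34 by -1.87 and Myb by -1.08 and Myc at 0.05. None of these lists held a gene past the threshold. At an unadjusted limma p of at most 0.05, 4 of 4 early granule, 5 of 5 late granule and 1 of 4 progenitor genes passed, all lower, compared with 20% of all tested genes. The part of these cells in the mitosis genes' values was not tested.

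Of the mitosis genes, 12 had more than 1 tested probe, which gave 15 comparisons of a dimmer probe with the brightest one. In 12 of 15 the dimmer probe gave the lower difference, the median over all 15 was -0.06, and in 9 both were within 0.25. The largest gaps were in Nuf2, Ect2 and Kif23, whose dim probes come from other transcript records and lie 11462, 24551 and 7604 bases from the bright ones in mm9. A different record did not always go with a large gap: a Birc5 probe from another record than the brightest one gave a gap of 0.11.

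The dim Nuf2 probe printed above read -4.85, -3.77 and -4.0 in P38α+/- and -6.17, -5.60 and -4.79 in P38α-/- erythroblasts. Only the highest P38α-/- array overlapped the lowest P38α+/- array, and the difference was -1.32 (interval -2.35 to -0.28, limma adjusted p = 0.171), compared with 0.08 for the bright probe. Like the tested Cdk1 probe, it was detected on 2 of the 3 P38α-/- arrays. A further Nuf2 probe had the same transcript record as the bright one and was not tested. It was detected on 2 of 3 P38α+/- arrays and on no P38α-/- array. It read -5.70, -4.98 and -5.27 in P38α+/- and -6.20, -6.81 and -6.92 in P38α-/- erythroblasts. By group means its signal was 1.88-fold higher in P38α+/- erythroblasts, measured against the lowest detected signal or the probe's own where that was higher. This value carries no error and did not hold for each pair of arrays, since the first numbered pair differed by -0.50.

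The dim Ect2 probe read -2.54, -2.23 and -2.04 in P38α+/- and -3.84, -2.96 and -2.91 in P38α-/- erythroblasts, with no overlap and a difference of -0.97 (limma adjusted p = 0.155). The dim Kif23 probe, the second printed above, read -3.0, -2.60 and -2.42 in P38α+/- and -3.67, -3.28 and -3.36 in P38α-/- erythroblasts, again with no overlap, and differed by -0.77 (limma adjusted p = 0.143). The bright Kif23 probe read -0.96, -0.91 and -0.68 in P38α+/- and -0.93, -0.96 and -1.05 in P38α-/- erythroblasts, overlapping, with a difference of -0.13. Each of these genes thus had a lower value in P38α-/- erythroblasts on the dim probe and a smaller difference on the bright one.

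Over all tested probes, the median difference was lower for dim probes. From the dimmest to the brightest of 5 equal groups of the tested probes the median difference was -0.70, -0.30, -0.15, -0.04 and -0.00019. The mitosis genes had 3, 2, 6, 11 and 27 probes in these groups. The tested Cdk1 probe and the dim Nuf2 probe were in the dimmest group, where the median of the 3 mitosis probes was -1.15, and the dim Ect2 and Kif23 probes in the middle one, where it was -0.38 over 6 probes. In the dimmest group 22.2% of the probes were detected on all 6 arrays. The others were detected on every array of 1 genotype only and were tested through that genotype. The part of this filter and of signal strength in these differences was not tested.

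**Figure D3:**
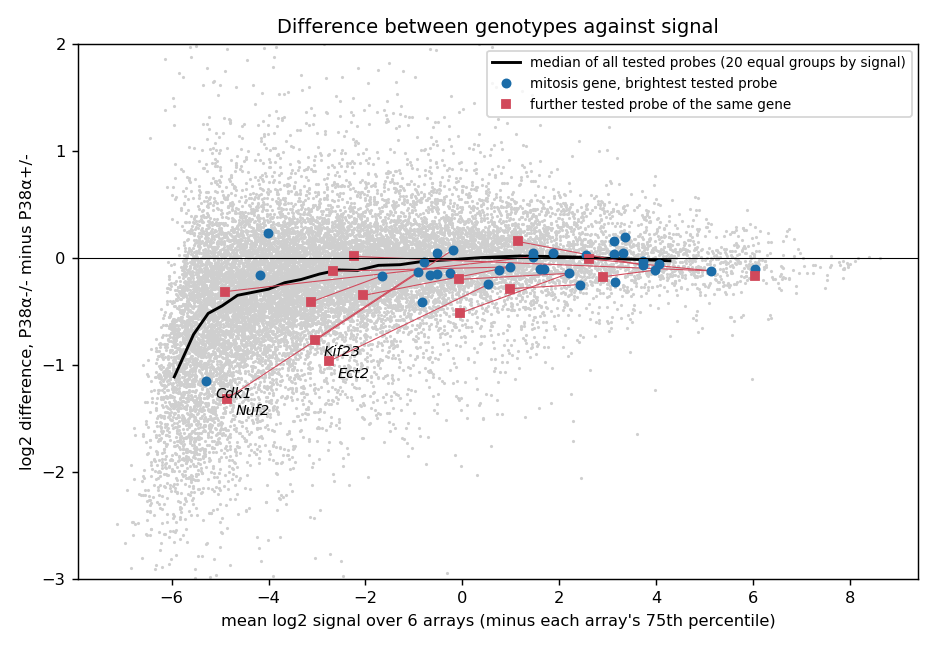
Log2 difference between P38α-/- and P38α+/- erythroblasts (vertical axis) against the mean log2 signal over the 6 arrays (horizontal axis) for all tested probes in grey, of which 69 lie outside the drawn range, with the brightest tested probe of each mitosis gene as a blue circle and its further tested probes as red squares joined to it. The black line, the median of all tested probes in 20 equal groups by signal, falls away at low signal, and Cdk1 and the dim Nuf2, Ect2 and Kif23 probes lie at the low-signal side of the mitosis probes.

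A wider list of mitotic genes was read in the same way. Of 80 further mitotic genes, 79 were tested and 0 passed the threshold, with 24 higher, 55 lower and a median of -0.12. At an unadjusted limma p of at most 0.05, 5 passed, compared with 20% of all tested genes. Of the 79, 40 lay above the median gene and 39 below it. The genotypes did not overlap for 16, compared with 27.1% of all tested genes. At the upper end were Anapc4, a subunit of the anaphase-promoting complex (0.57, adjusted p = 0.202, with all P38α-/- arrays higher), Mad1l1, the kinetochore anchor of Mad2 (0.38), and Mastl, the Greatwall kinase (0.33). At the lower end were Cdc23, a second subunit of the anaphase-promoting complex (-1.08, adjusted p = 0.105), Plk4, the kinase of centriole duplication (-0.56), and citron kinase Cit (-0.52).

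Cdc23 read -3.75, -3.62 and -3.86 in P38α+/- and -5.15, -4.95 and -4.38 in P38α-/- erythroblasts by this probe, without overlap. A dimmer probe of the gene gave a difference of -0.39 in overlapping groups.

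The 36 DNA replication genes, as the closest program outside mitosis, had 35 tested and 0 past the threshold. None had an unadjusted limma p of at most 0.05, compared with 20% of all tested genes. Their median difference was 0.01, or 0.15 above the median gene, with 18 higher and 17 lower, and their position against the mitosis genes was not tested. The lowest were Pole, the leading-strand polymerase (-0.28), Rrm2, a subunit of ribonucleotide reductase (-0.25), and Ccne1, cyclin E1 (-0.22). The highest were the polymerase alpha subunit Pola2 (0.24), the clamp loader subunit Rfc2 (0.23) and the licensing factor Cdc6 (0.21). Ccna2 and Rfc2 were each higher on all P38α-/- arrays, and neither passed the test.

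**Figure D4:**
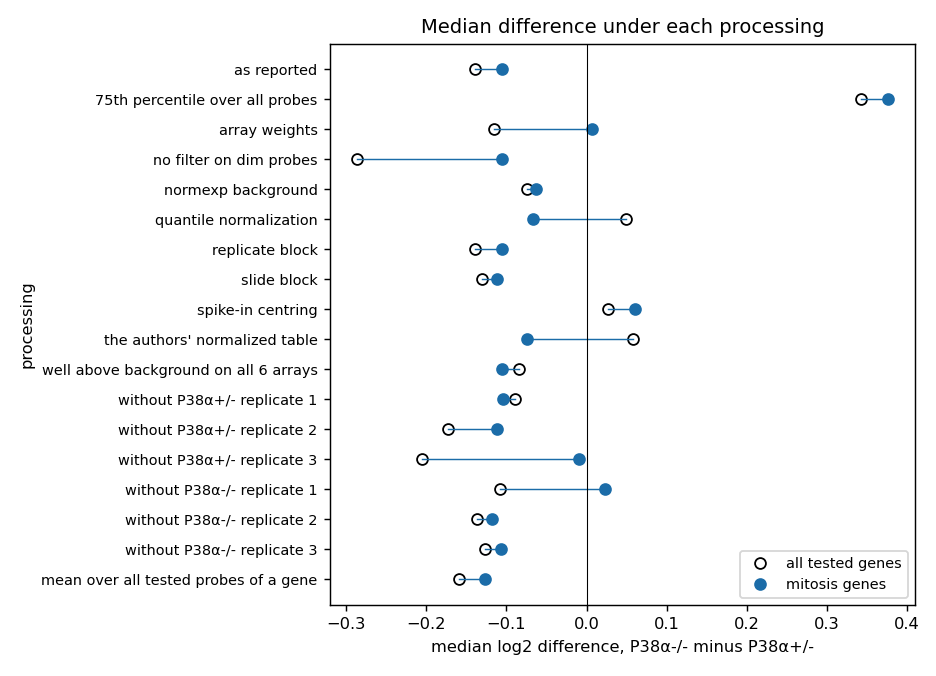
Median log2 difference between P38α-/- and P38α+/- erythroblasts (horizontal axis) over the tested mitosis genes (filled) and over all tested genes (open) under each processing (vertical axis). The median mitosis gene lies within 0.20 of the median of all tested genes in every row, at -0.11 against -0.14 as reported and at 0.38 against 0.34 with the percentile over all probes, while the sign of both moves with the scaling.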

How the data were processed

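RNA of sorted CD71highTer119+ erythroblasts from 3 P38α+/- and 3 P38α-/- mice was hybridised to Agilent arrays, labelled with Cy3 after amplification from 10 ng. The authors deposited spot intensities from Agilent Feature Extraction 10.7.3.1, background-subtracted within each array and not normalized between arrays, with mm9 probe positions. They also deposited a table of normalized intensities on a linear scale, whose steps are not given in the sources used here. Its columns ranked the probes as the scanner files did (Spearman 1.00) except for P38α-/- replicate 2 (0.898). 

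Control and outlier spots were left out, spots of a probe averaged, and no spot was saturated. The deposited intensities were put on the log2 scale without a pseudocount, and the 75th percentile was subtracted, taken over the 15538 probes that the scanner software called well above background on each array (detected). Probes detected on every array of at least 1 genotype were tested with limma 3.58.1 in R 4.3.3 (two-sided), with Benjamini-Hochberg adjustment over 18777 probes. A gene was counted as passing by any of its probes and is described by its brightest tested probe. The threshold was that of the study's methods, whose unpaired test was an alternative. Of the probe names, 27509 came from the accession, 3549 from a symbol and 404 from a synonym, and 24219 stayed as in the files.

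The mitosis genes, the lists, the markers and the choice of percentile were settled with earlier results of these data known. Full values are given for the 6 highest and 6 lowest genes measured above background on all arrays, for Cdk1, Ccnb1 and Mki67, and for the 3 largest disagreements between probes, and of the other lists for the 3 at each end. Replicate numbers paired the arrays: deviations correlated at 0.392, 0.242 and 0.389 between equal numbers and at most at 0.061 between others. The series description also speaks of pairs. Unless blocking is named, standard errors, intervals and adjusted p of single genes are from the fit without these pairs. Blocking lowered the SE of every tested mitosis probe except a dim Mad2l1 probe. That of Cenpe fell from 0.24 to 0.13, and that of the Mad2l1 probe rose from 0.28 to 0.29. The standard errors given are thus larger than the blocked ones almost throughout. Alternatives changed the percentile, background, normalization, filter, weights, blocks, probes and arrays used. On simulated data with 200 of 18777 probes changed by 2 on the log2 scale, 150 were called, 145 of them changed, and with none changed 0 were called. The simulated arrays were independent, unlike the paired ones here, and the change was larger than that of any mitosis gene. The simulation therefore cannot show how often differences of the size seen here would be missed.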

Additional observations from a re-analysis of the deposited data

How the results depend on the processing

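The median difference of the mitosis genes kept its direction under every alternative except the 75th percentile over all probes (0.38), spike-in centring (0.061), array weights (0.0062) and the loss of P38α-/- replicate 1. With 1 replicate left out at a time it ran from -0.12 to 0.023, that of the further mitotic genes from -0.17 to -0.0075 and that of the DNA replication genes from -0.056 to 0.054. For the further mitotic genes the percentile over all probes gave 0.36 and spike-in centring 0.043. For the DNA replication genes these gave 0.50 and 0.18, and the mean over a gene's tested probes -0.062. The number of mitosis genes past the threshold was 0 under every alternative and with any replicate left out, except that array weights passed 1, Cdk1 (-1.07). Over all genes, where 27 passed as reported, 734 passed with the percentile over all probes, 1674 with array weights, 0 without the filter on dim probes, 12 with normexp background, 15 with quantile normalization, 0 with the slide as a block, 8 with spike-in centring, 11 in the authors' table, 2 by the methods' t-test, 64 with probes well above background on all 6 arrays, and 0 to 310 with 1 replicate left out, 310 without P38α+/- replicate 3 and 0 without any other. The share higher was 77.8% as reported, 55.4% with the percentile over all probes, 14.5% with array weights and 25% with spike-in centring. The replicate block, which pairs arrays of equal number, passed 62 genes, 24.2% of them higher, and 0 mitosis genes, and it changed no other call given. The adjusted p of Cdk1 ranged from 0.021 to 1.00 over the alternatives, and from 0.057 without P38α+/- replicate 3.

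Signs turned for single genes, Ndc80 among them. With the percentile over all probes, values were 0.34 for Ccnb1, 0.26 for Cenpe, 0.32 for Cenpf, 0.23 for Ect2, 0.31 for Kif2c, 0.37 for Mki67, 0.067 for Ndc80 and 0.23 for Racgap1. With spike-in centring they were 0.022 for Ccnb1, 0.0027 for Cenpf and 0.058 for Mki67. Cenpf was at 0.41 with quantile normalization, and in the authors' table Cenpf was at 0.40, Kif2c at 0.029 and Top2a at -0.0092. The slide as a block put Cenpa at -0.013 and Top2a at -0.053, and the mean over tested probes put Nuf2 at -0.62. With 1 replicate left out, Ccnb1 ran from -0.24 to 0.078, Cenpa from -0.0082 to 0.13, Cenpe from -0.36 to 0.0051, Nuf2 from -0.024 to 0.21 and Top2a from -0.049 to 0.21. The cause of these changes was not tested. Low signal over background limits the dim probes, and 3 arrays a genotype limit every interval.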

Other observations

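Markers of other cells, not used above, were read in the same way. Late erythroid genes, with 5 of 5 tested, had a median difference of 0.06. Of the B cell genes 1 of 6 was tested, Cd79b, which differed by -2.42 and ranged from -4.20 to -0.46 on the P38α+/- arrays and from -5.19 to -3.07 on the P38α-/- arrays. T or NK cell genes, with 3 of 4 tested, had a median of -0.93, and all 3 had lower values in P38α-/- erythroblasts. Monocyte or macrophage genes, with 5 of 6 on the array and all 5 tested, had a median of -0.48 and lower values throughout. Megakaryocyte or platelet genes, with 3 of 4 tested, had a median of 0.22, with 2 higher and 1 lower. None of these genes passed the threshold.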
